A study of Mus musculus with 48 samples.

Results

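The phase II conjugation enzymes of mouse liver were followed through 2 circadian cycles. Members were the genes whose probe set on the array carries a single symbol beginning with Ugt1, Ugt2, Ugt3, Gsta, Gstm, Gstp, Gstt, Gstk, Gsto, Gstz, Mgst or Sult, and a gene with several such probe sets was represented by the brightest one. This gave 46 of 18194 genes, made up of 10 UDP-glucuronosyltransferase (UGT) genes, 23 glutathione S-transferase (GST) genes and 13 sulfotransferase (SULT) genes. None of the 46 was a Ugt1 gene, because the 3 probe sets for that locus name 8 symbols each. RNA was taken from liver of C57BL/6J mice, all male and 6 weeks of age, with no genetic or drug treatment. After a week under equal 12 h spans of light and dark the animals stayed in constant darkness, so the rhythms were read without a light cue. From CT18 to CT65 (circadian time, with CT0 at subjective dawn and CT12 at subjective dusk), 1 pool of 3 to 5 mice was made each hour and read on 1 Affymetrix whole-genome mouse array. The pools of CT42 to CT65 form the second cycle and those of CT18 to CT41 the first cycle, with 24 pools in each. Each hour was sampled once, and all errors and p-values therefore measure the spread between pools around a fitted course.

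Phase II enzymes attach a water-soluble group to drugs, steroids, bile acids, bilirubin and reactive metabolites so that these can leave through bile and urine. UGT enzymes transfer glucuronic acid, or in the UGT3 family other sugars, GST enzymes add glutathione, and SULT enzymes add sulfate from the donor PAPS. The liver is the main site of these reactions, and many of the genes sit in tandem arrays of closely related copies.

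The enzyme genes cycled in part, mostly with small amplitudes and without a shared phase. A 24 h period was called where both Fisher's G-test and a cosine fit gave a Storey q-value under 0.05 and the fitted period lay above 20 and under 30 h. By this rule 14 of the 46 genes cycled, against 14.2% of all 18194 genes. Of the 46 genes, 37 had a mean intensity of at least 100, above the level near background, and among these 14 of 37 were called, against 22.3% of the 11186 genes at that level. The share was 5 of 10 for UGT genes, 6 of 20 for GST genes and 3 of 7 for SULT genes. No test between the classes was run, since genes of a class are not replicates. The amplitude, meaning the log2 distance from the mean to the peak of the fitted 24 h component, had a median of 0.13 over the 37 genes, and of 0.11 in UGT, 0.13 in GST and 0.20 in SULT genes, beside 0.13 over all genes at that level. The map of all 37 genes by pool shows the courses.

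**Figure D1:**
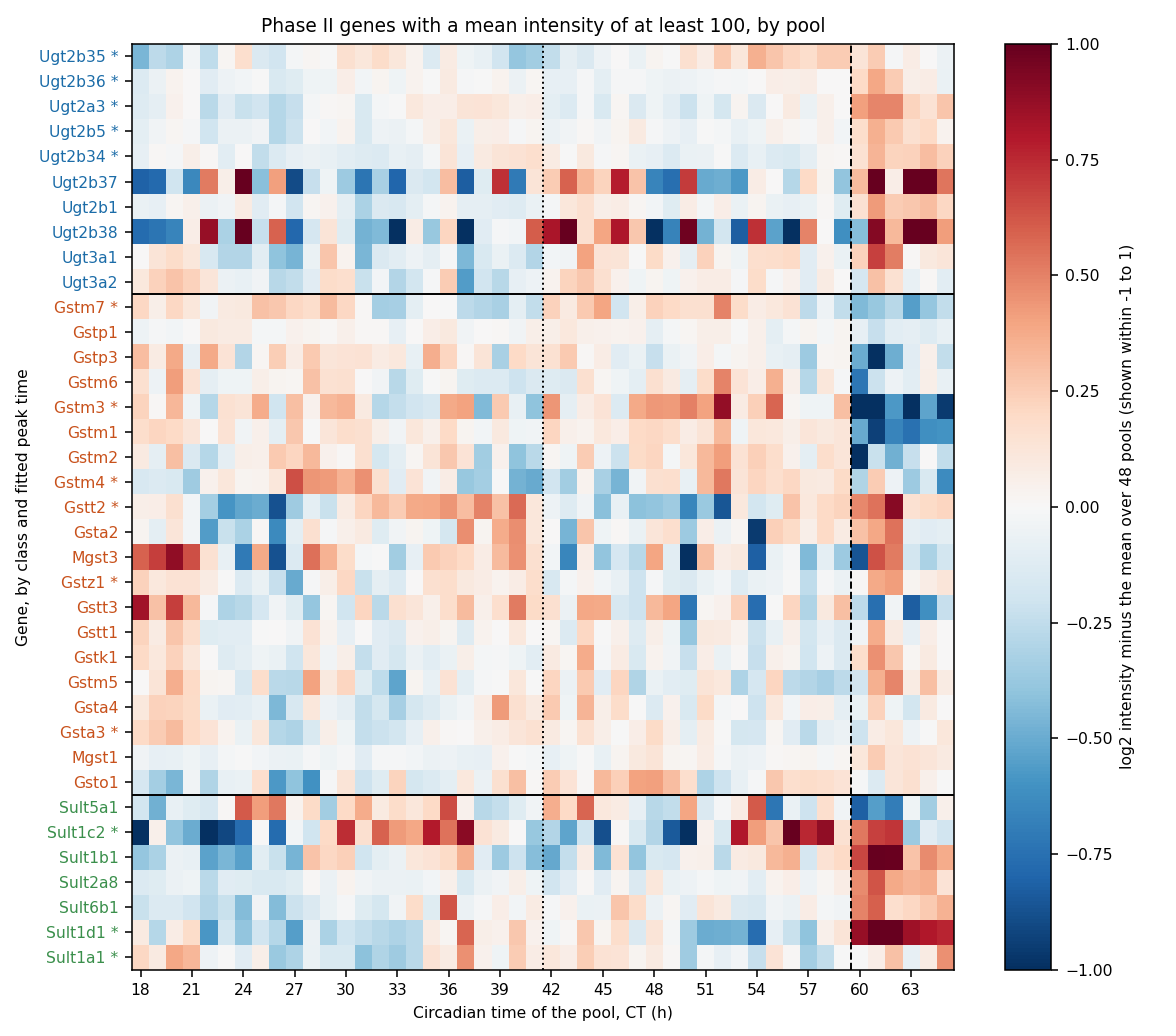
Each row is 1 gene and each column 1 hourly pool, coloured by log2 intensity minus the gene's mean over the 48 pools (red high, blue low, shown within -1 to 1). Rows are ordered by class (UGT, GST, SULT from top to bottom) and by fitted peak time, a star marks the 14 genes called with a 24 h period, the dotted line divides the first from the second cycle and the dashed line marks the start of CT60 to CT65, where most UGT rows turn red and several Gstm rows turn blue.

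The pools of CT60 to CT65 stood apart and touch several results. Their median correlation with the other arrays was between 0.9842 and 0.9904, against 0.9888 to 0.9952 for the other 42 pools. Their array medians were higher, 104.0 to 110.9 against 95.2 to 105.0, and the 75th percentile of intensity was 797.1 to 944.8 against 891.3 to 1099.4, so the distribution of intensities differed in these pools. Of the 37 genes, 20 had their highest value of all pools within CT60 to CT65 and 10 their lowest, against 26.2% and 36.5% of all genes at that level. Among UGT genes 9 of 10 peaked there and 0 of 10 had their lowest value there. The hepatocyte markers, of which 5 of 6 were measured and all were bright (Alb, Ttr, Apoa2, Fgb and Tat), summed to between 2814964.9 and 2993814.7 in CT60 to CT65, against 2763290.1 to 2915815.0 at the same hours a cycle earlier, CT36 to CT41. The 6 Kupffer cell markers summed to between 70738.4 and 90114.8, against 66462.2 to 78841.4, and the 6 sinusoidal endothelial markers to between 28563.0 and 31476.2, against 27765.7 to 31029.9. The endothelial sum was mostly Clec4g, and the mean log2 level over the 6 markers differed by -0.47 between CT60 to CT65 and CT36 to CT41. Over the whole second cycle against the first cycle Stab2 differed by -0.36, Cdh5 by -0.33 and Kdr by -0.30, and Clec4g by 0.27 (limma adjusted p = 0.00668, 0.00176, 0.00936 and 0.000427). Lyve1 differed by -0.02 and Oit3 by 0.05 (0.863 and 0.559). Markers of other cells passed too, the Kupffer genes Vsig4 (0.41) and C1qb (0.30) and the stellate genes Reln (-0.34), Col3a1 (-0.27) and Lrat (0.25). So did 2 gut and kidney markers, both higher, and 0 hepatocyte or bile duct markers. The mean log2 level in CT60 to CT65 against CT36 to CT41 differed by -0.04 for hepatocyte, 0.07 for Kupffer cell, 0.06 for bile duct, -0.07 for stellate cell and 0.17 for gut and kidney markers. The 4 markers of gut and kidney epithelium summed to between 19815.6 and 31997.0, highest of all pools at CT61, against 15609.4 to 24652.5. Nearly all of that sum was Fabp2, while Vil1 and Kap had means under 100. Bile duct markers summed to 687.0 to 936.2, against 630.9 to 960.3, and stellate cell markers to 61545.6 to 76328.4, against 59678.4 to 80284.5. Acinar markers of the pancreas reached 303268.4 at CT25 and lay between 5770.2 and 8746.3 in CT60 to CT65, against 4419.0 to 6730.2 at CT36 to CT41. Their mean log2 level differed by 0.27 between those hours. The part of other cells in the results was not tested, and in pooled tissue fewer cells of a type and less RNA per cell cannot be told apart. Results that rest on CT60 to CT65 are given with and without these pools.

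Among UGT genes, Ugt2b35, Ugt2a3, Ugt2b34, Ugt2b5 and Ugt2b36 were called with a 24 h period. All 5 encode enzymes of the UGT2 family, which conjugates steroids, bile acids and many drugs. Their swings were small, with fitted ratios of peak to trough of 1.27 for Ugt2b35, 1.24 for Ugt2a3, 1.10 for Ugt2b5 and 1.08 for Ugt2b36. The amplitude of Ugt2b34 was 0.13 ± 0.01, and its separate probe set gave 0.16 ± 0.02 at CT15.6 ± 0.52 h, also called by both tests. Ugt2b35 was the early gene of the family. It stood at 90762.8 at CT18 and at 95404.2 and 97925.2 at CT40 and CT41, against 134706 to 141189 at CT30 to CT33 and 135056 to 158970 at CT52 to CT59. The fitted peak was at CT6.0 ± 0.45 h (SE) with an amplitude of 0.18 ± 0.02 (limma, adjusted p = 4.46e-09). The other called UGT genes peaked later, Ugt2b36 at CT11.8 ± 0.92 h, Ugt2a3 at CT13.5 ± 0.53 h, Ugt2b5 at CT14.6 ± 0.90 h and Ugt2b34 at CT16.3 ± 0.45 h. Ugt2b36 and Ugt2b5 were no longer called when CT60 to CT65 were left out or a trend was removed before the G-test, and Ugt2b36 also not with linear values or quantile normalization, while Ugt2b35, Ugt2a3 and Ugt2b34 were called under all 4 of these alternatives.

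Ugt2b38 and Ugt2b37 differed from the rest of the family by sharp changes from pool to pool. Ugt2b38 stood at 3358.2 at CT48, 6198.3 at CT49, 19399.3 at CT50 and 7106.8 at CT51, and reached 28570.2 at CT63. Ugt2b37 stood at 733.8, 685.5, 1878.2 and 814.2 in the same 4 pools and reached 3741.1 at CT64. Its residual SD around the harmonic fit was 0.55 on the log2 scale and that of Ugt2b38 was 0.70, against a median of 0.10 over the 10 UGT genes. The residuals of the pair had r = 0.84 over 48 pools (Spearman's rho = 0.82, permutation p = 1e-05 for each, the smallest that 100000 permutations give, adjusted p = 0.000111 for r over 666 pairs). Without the 2 pools farthest from the median r was 0.80, and without CT60 to CT65 it was 0.83. This pair was picked for its size among 666 pairs of the 37 genes, whose median r was 0.15 and of which 267 had an adjusted p under 0.05, and successive pools are not fully independent. Both genes are close copies in 1 gene cluster, and whether their probes also read each other's transcripts was not tested. Neither was called by both tests, and the adjusted p of the 24 h component in limma was 0.0504 for Ugt2b37 and 0.0686 for Ugt2b38.

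Among GST genes, Gstt2, Gstm3, Gstm4, Gstm7, Gsta3 and Gstz1 were called. The call of Gstm3 was lost with linear values, with quantile normalization, with a trend removed before the G-test and without CT60 to CT65. Gstt2, a theta-class transferase, had the widest swing of the class, with a fitted ratio of 1.97. It lay between 27923 and 33587.2 at CT36 to CT40 and between 25330.3 and 42754.1 at CT60 to CT65. In the subjective night and morning it lay between 12465.9 and 18013.6 at CT22 to CT27 and between 12573.1 and 17729.4 at CT47 to CT52. These hours were chosen from the values, so the gap between the ranges is no test. The course of Gstt2 came back with nearly the same size in both cycles, with fitted amplitudes of 0.47 in the second cycle and 0.48 in the first cycle. Its peak was at CT12.9 ± 0.30 h (amplitude 0.49 ± 0.04, limma adjusted p = 4.02e-12). Gstz1, the isomerase of tyrosine breakdown, peaked at CT15.1 ± 0.78 h with an amplitude of 0.14 ± 0.03, and was no longer called by both tests without CT60 to CT65. Gsta3, an alpha-class enzyme known in mice for conjugating the epoxide of aflatoxin, peaked at CT18.9 ± 0.63 h. It reached 595706 at CT20 and was lowest, at 386750, at CT27 (amplitude 0.14 ± 0.02, limma adjusted p = 1.02e-05). A separate probe set for Gsta3 had an amplitude of 0.25 ± 0.03 and a peak at CT19.2 ± 0.44 h, also called by both tests.

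The mu-class genes stood on the other side of the day. The 7 Gstm genes lie next to each other on chromosome 3 with no other coding gene between them, in the order Gstm5, Gstm7, Gstm6, Gstm3, Gstm2, Gstm1 and Gstm4. A 24 h component passed the threshold in limma for all 7. Gstm7 peaked at CT1.3 ± 0.46 h, Gstm6 at CT2.1 ± 1.02 h, Gstm3 at CT2.6 ± 0.98 h, Gstm1 at CT3.2 ± 1.09 h, Gstm2 at CT3.3 ± 1.05 h and Gstm4 at CT5.4 ± 0.49 h. These 6 peaks lay in the subjective morning. Gstm5, at the end of the row, peaked at CT18.4 ± 1.33 h. Gstm4 had the clearest course, between 10115.8 and 12422.7 at CT27 to CT31 and at 9954.3 and 11473.2 at CT51 and CT52, against 5728.2 and 5602.3 at CT40 and CT41. Its amplitude was 0.32 ± 0.04 (limma adjusted p = 3.37e-08). Gstm7 reached 11112.4 at CT45 and 11890 at CT52, against 6680.5 and 6692.7 at CT32 and CT33 and 5770.6 to 7115 at CT60 to CT65 (amplitude 0.25 ± 0.03, adjusted p = 1.85e-07).

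**Figure D2:**
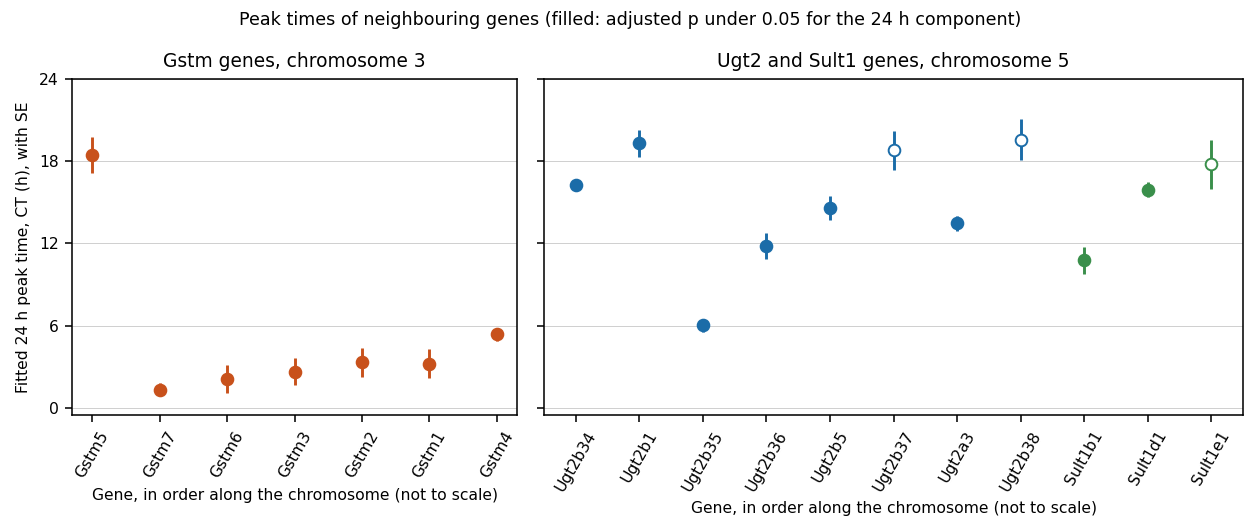
Fitted 24 h peak time in circadian hours, with its SE, for neighbouring genes in their order along chromosome 3 (left, GST genes in orange) and chromosome 5 (right, UGT genes in blue and SULT genes in green); filled points had an adjusted p under 0.05 for the 24 h component. Of the 7 Gstm genes 6 peak between CT1.3 and CT5.4 while Gstm5 peaks at CT18.4, and the filled points of chromosome 5 spread from CT6.0 to CT19.3.

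For Gstm1 and Gstm3 the 24 h component in limma no longer passed without the last 6 pools. Gstm1 was flat for 42 hours, between 209119 and 279926 from CT18 to CT59, and then lay between 117329 and 157825 from CT60 to CT65. Without CT60 to CT65 its amplitude was 0.03 ± 0.02, against 0.16 ± 0.04 with all pools, and the adjusted p of the 24 h component in limma was 0.583, against 0.0132. Gstm3 was also lowest there, between 9847.4 and 18406.2 from CT60 to CT65, but varied more in the other 42 pools, between 19491.7 and 48676.3. Its amplitude was 0.14 ± 0.06 without CT60 to CT65 (adjusted p = 0.183), against 0.33 ± 0.08 with all pools (adjusted p = 0.0077). Gstm3 is read by a probe set that matches several related transcripts and Gstm1 by one with probes shared with other genes, and whether the pair reads partly the same RNA was not tested. Their residuals had r = 0.84 over 48 pools and 0.72 without CT60 to CT65 (rho = 0.83, permutation p = 1e-05, adjusted p = 0.000111 for r). Without the 2 farthest pools r was 0.83. This pair, too, was picked for its size among the 666 pairs. Gstm2 kept an adjusted p of 0.0221 without CT60 to CT65, Gstm6 one of 0.0251, and the components of Gstm4 and Gstm7 also stayed past the threshold. The component of Gstm5 was near the threshold throughout. Its amplitude was 0.09 ± 0.04 without CT60 to CT65 (adjusted p = 0.199), against 0.12 ± 0.04 with all pools (0.0323), and the call was also lost without any single one of CT20, CT27, CT42, CT53, CT54 or CT64. Of 3 other probe sets for Gstm1, 1 passed with all pools, at 0.18 ± 0.05 and CT3.5 ± 1.17 h (adjusted p = 0.0183), and the others gave 0.10 ± 0.04 (0.121) and 0.08 ± 0.05 (0.317). A separate set for Gstm3 gave 0.26 ± 0.10 (adjusted p = 0.0815).

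The other GST genes were not called with a 24 h period by both tests, though not all had smaller amplitudes. Gsta4, which conjugates the lipid peroxidation product hydroxynonenal, had an amplitude of 0.13 ± 0.03 at CT18.5 ± 0.97 h (adjusted p = 0.00374). Gstk1, the kappa-class enzyme of mitochondria and peroxisomes, had 0.10 ± 0.02 at CT17.9 ± 1.08 h (adjusted p = 0.00908). Both were called by limma and not by both tests together. Gsta2, another alpha-class gene, had 0.16 ± 0.06 (adjusted p = 0.0689).

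Among SULT genes, Sult1c2, Sult1d1 and Sult1a1 were called. Sult1c2 had the largest amplitude of all 46 genes, 0.64 ± 0.08, a fitted ratio of 2.43. It lay between 830.6 and 1388.7 at CT30 to CT37 and between 826.5 and 1612.2 at CT53 to CT62, against 327.6 to 771.9 at CT18 to CT24 and 314.3 to 748.5 at CT42 to CT50. These windows were chosen from the values, so the gap between them is no test. The peak was at CT9.8 ± 0.44 h (limma adjusted p = 6.58e-08). Sult1a1, the main phenol sulfotransferase of the liver, peaked at CT18.1 ± 0.64 h with an amplitude of 0.21 ± 0.03 (adjusted p = 9.72e-06). Its highest values were 172876 at CT65 and 172423 at CT37, and it lay between 94555.5 and 104292 at CT31 to CT34.

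Sult1d1, which in mice sulfates catecholamines and other amines, peaked at CT15.9 ± 0.54 h with an amplitude of 0.40 ± 0.05. It lay between 91597.1 and 115552 from CT60 to CT65, above all other 42 pools, which lay between 31896.1 and 80963.7. Without CT60 to CT65 the amplitude was 0.28 ± 0.05 at CT16.0 ± 0.65 h (limma adjusted p = 0.000184), though the gene was then not called by both tests. Its separate probe set gave 0.38 ± 0.06 at CT15.6 ± 0.62 h and was called. Sult1b1, which acts on phenols and thyroid hormones, passed both tests, but its cosine period was 30.0 h, at the edge of the search and outside the 24 h class. It was called in that class without CT60 to CT65, at CT8.5 ± 0.87 h. It lies beside Sult1d1 on chromosome 5, and the residuals of the pair had r = 0.78 over 48 pools and 0.65 without CT60 to CT65 (rho = 0.78, permutation p = 1e-05, adjusted p = 0.000111 for r). Without the 2 farthest pools r was 0.77. This pair was also picked for its size among the 666 pairs. Genes on different chromosomes reached a like value, with r = 0.77 for Mgst1 and Sult2a8 (0.54 without CT60 to CT65).

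**Figure D3:**
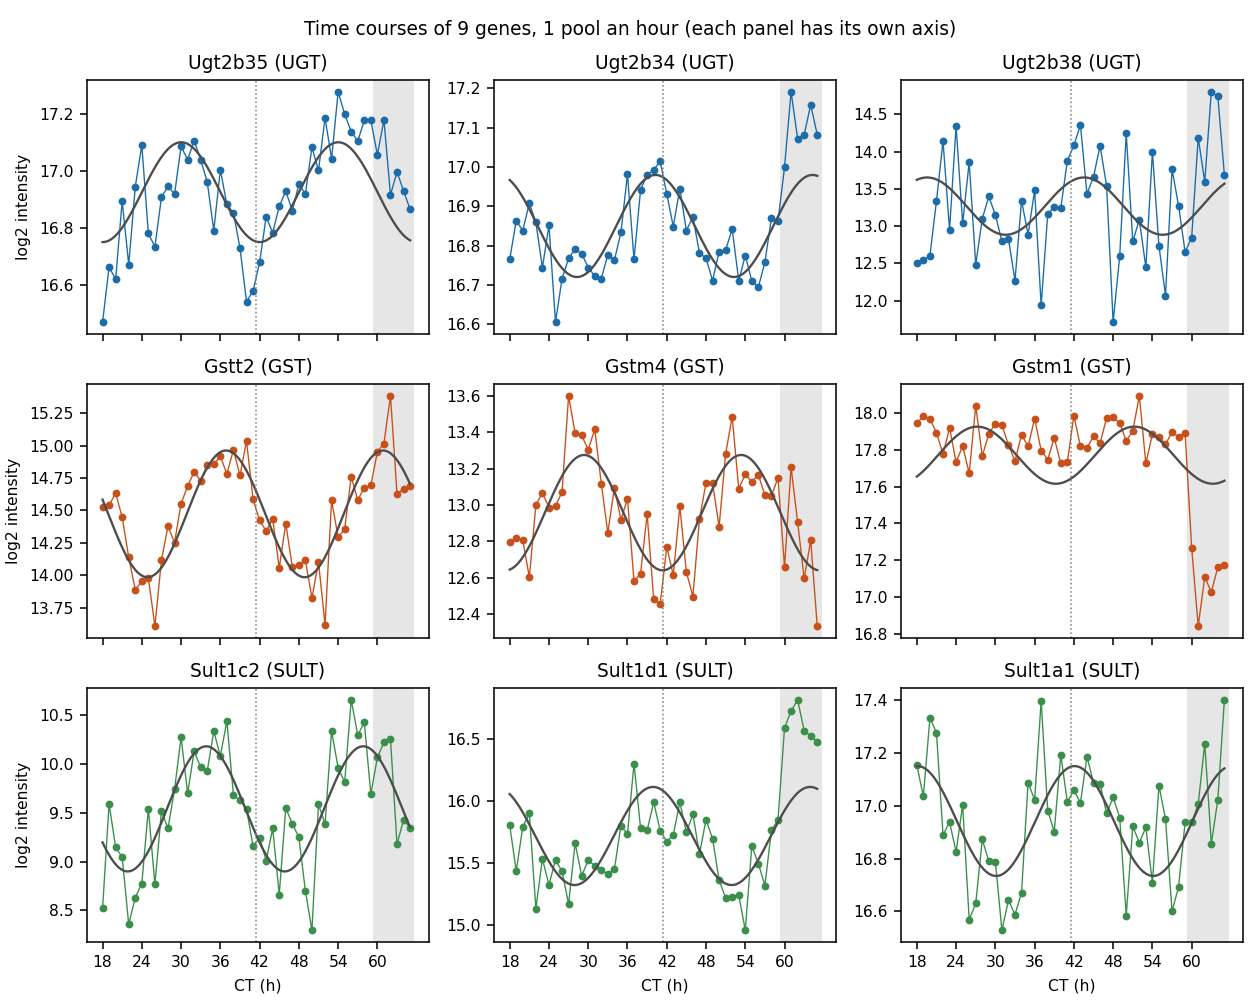
Log2 intensity against circadian time for 9 genes, with 1 point per hourly pool (UGT blue, GST orange, SULT green) and the gene's mean plus the fitted 24 h component as a grey curve. The dotted line divides the cycles and the shading marks CT60 to CT65; Gstt2 and Sult1c2 follow their curve in both cycles, Ugt2b38 scatters widely around it, Gstm1 is flat until its step down at CT60 and Sult1d1 steps up there.

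Peak times of the 14 called genes covered much of the cycle. 8 of 14 peaked between CT12 and CT24, beside 36.0% of all called genes at that level of intensity. These were 3 UGT, 3 GST and 2 SULT genes, while Ugt2b35, Ugt2b36, Gstm3, Gstm4, Gstm7 and Sult1c2 peaked between CT0 and CT12. The count rests in part on CT60 to CT65, which fall at CT12 to CT17 of the cycle. Without these pools 10 genes were called. Of those that peaked between CT12 and CT24, Ugt2b5, Gstz1 and Sult1d1 were then lost. Of the others Gstm3 and Ugt2b36 were lost, and Sult1b1 was gained at CT8.5. The share of all genes was not counted by peak time in that setting. No class shared a single peak time, with Ugt2b35 at CT6.0 and Ugt2b34 at CT16.3, Gstm7 at CT1.3 and Gstt2 at CT12.9, and Sult1c2 at CT9.8 and Sult1a1 at CT18.1.

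**Figure D4:**
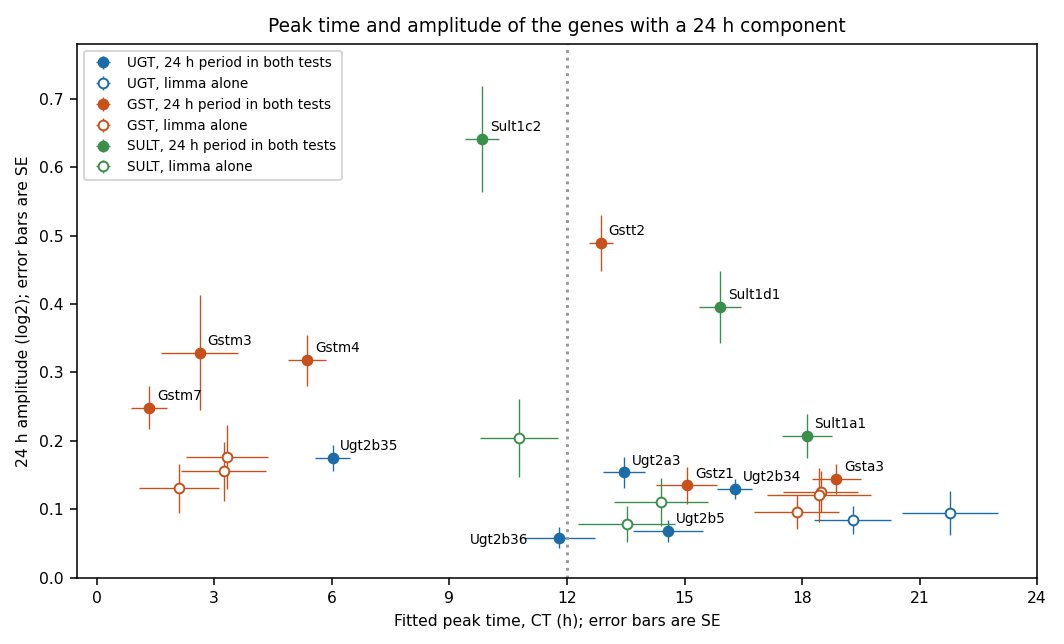
Fitted peak time in circadian hours against 24 h amplitude on the log2 scale, each with its SE, for the 25 genes of mean intensity at least 100 whose 24 h component passed the threshold in limma. Filled points are the 14 genes also called by both tests (UGT blue, GST orange, SULT green); Sult1c2, Gstt2 and Sult1d1 have the largest amplitudes, and the UGT points all lie under 0.2.

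The harmonic model in limma called more genes than both tests together, and the reason was not tested. A 24 h component passed an adjusted p of 0.05 in 30 of the 46 genes, against 52.7% of all genes, and in 25 of the 37 brighter ones (7 of 10 UGT, 12 of 20 GST and 6 of 7 SULT), against 56.4% at that level. The genes with the smallest amplitudes among those not called by both tests were Ugt3a1 (0.07 ± 0.04), Ugt2b1 (0.08 ± 0.02) and Ugt3a2 (0.10 ± 0.03) in the UGT class. In the GST class they were Mgst1 (0.02 ± 0.01), Gstp3 (0.02 ± 0.04) and Gstp1 (0.03 ± 0.01), and in the SULT class Sult2a8 (0.08 ± 0.03), Sult6b1 (0.11 ± 0.03) and Sult5a1 (0.12 ± 0.07). Gstp1, the pi-class enzyme, was among the steadiest, between 522849 and 658084 over all 48 pools, with its lowest value at CT61, and lay between 522849 and 581544 in CT60 to CT65. Mgst1, the membrane-bound enzyme of the endoplasmic reticulum, lay between 452741 and 583874.

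The level was read on a scale where dim probe sets carry little information. The 9 genes with a mean under 100 were Gsto2, Gstt4, Mgst2, Sult1c1, Sult1e1 (estrogen sulfotransferase), Sult2a2, Sult2b1, Sult3a1 and Sult4a1. Their means lay between 53.6 and 89.2 and their 24 h amplitudes between 0.02 and 0.04, and none was called by both tests. In limma 5 of the 9 had a 24 h component, beside 46.9% of all genes under that level. All 5 peaked between CT12 and CT24, as did 98.8% of all genes under that level with such a component. Sult2a2 and Sult3a1 belong to families that act on hydroxysteroids and amines, Sult4a1 is known as a brain form, and Sult2b1 acts on cholesterol and pregnenolone.

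Few genes were called with shorter periods, at counts too small to set apart from the shares over all genes. None of the 46 genes was called with a 12 h period by both tests, against 1.13% of all genes. With an 8 h period 1 of 46 was called, against 0.39%. This was Gsto1, an omega-class enzyme that reduces dehydroascorbate, with a cosine period of 8.2 h but a G-test period of 48.0 h and an adjusted p of 0.0927 for the 8 h component in limma. Its separate probe set was not called. In limma 0 of 46 genes had a 12 h component, against 7.13% of all genes, and 0 of 46 an 8 h component, against 2.13%. At an unadjusted p under 0.05 in limma the counts were 8 for 12 h and 13 for 8 h. The shares over all genes at that threshold were not counted, so nothing is read from these 2 counts. Leaving out CT36 or CT61 brought Ugt3a2 past the threshold at 12 h (adjusted p = 0.0331 and 0.0395). Leaving out CT37 did so for Ugt2b34 at 12 h (0.0401) and for Ugt3a2 at 8 h (0.0319).

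The second cycle was compared with the first cycle at matched hours, 24 pairs of pools. Of the 46 genes 21 were higher in the second cycle, against 38.0% of all genes, and 2 were lower, against 16.2%. All 9 dim genes were among the 21, with differences of only 0.03 to 0.08 on the log2 scale. Of the 37 brighter genes 12 were higher, against 17.7% of all genes at that level, and 2 were lower, against 26.1%. The 12 were 6 UGT, 2 GST and 4 SULT genes. The median difference was 0.12 in UGT, -0.02 in GST and 0.14 in SULT genes of that level, beside -0.02 over all genes of that level and 0.03 over all 18194 genes. With quantile normalization 10 of the 46 were higher and 0 lower, against 13.4% and 8.21% of all genes. Without CT60 to CT65 and CT36 to CT41 13 were higher and 1 lower, against 28.0% and 8.51%. The medians by class include these hours and were not taken without them. With all hours the brighter genes differed by 0.05 to 0.42 in UGT, -0.32 to 0.23 in GST and -0.13 to 0.26 in SULT. Without these hours the ranges were 0.02 to 0.24, -0.33 to 0.32 and -0.04 to 0.16.

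**Figure D5:**
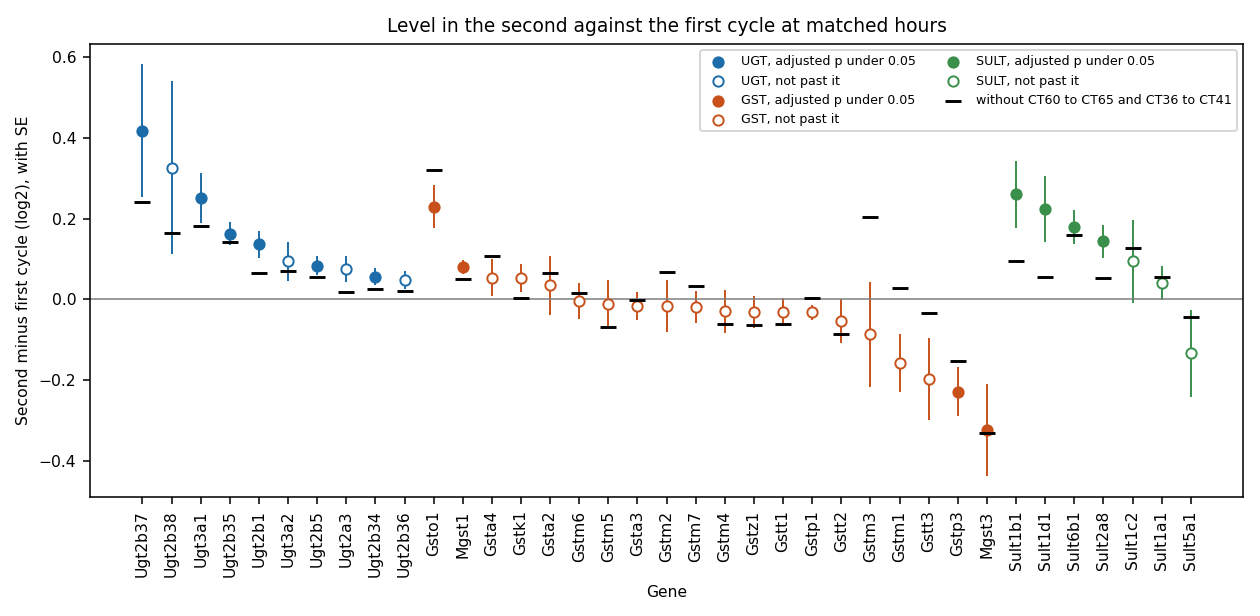
Log2 difference, second minus first cycle at matched hours, with its SE, for the 37 genes with a mean intensity of at least 100, by class (UGT blue, GST orange, SULT green) and size. Filled points had an adjusted p under 0.05 and the black dashes give the difference without CT60 to CT65 and CT36 to CT41; Ugt2b37 lies highest and Mgst3 lowest, and for Sult1d1, Sult1b1 and Gstm3 the dash lies well away from the point.

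Ugt2b37 had the largest difference, 0.42 ± 0.16 (adjusted p = 0.0353), with 1482 ± 758 in the second cycle and 1072 ± 438 in the first cycle (SD, n = 24 pools each). It was higher in 19 of 24 hours. Mgst3, a microsomal enzyme of the leukotriene branch, differed by -0.32 ± 0.11 (adjusted p = 0.0197), with 3944 ± 1128 in the second cycle and 4927 ± 1310 in the first cycle, and lower in all but 4 of 24 hours. Sult1b1 differed by 0.26 ± 0.08 (adjusted p = 0.0111), Ugt3a1 by 0.25 ± 0.06 (adjusted p = 0.00186) and Gsto1 by 0.23 ± 0.05 (adjusted p = 0.00126). Without CT60 to CT65 and their partners CT36 to CT41 the difference of Ugt3a1 was 0.18 (adjusted p = 0.0253) and that of Gsto1 0.32 (0.00386). It was 0.10 for Sult1b1 (0.318), 0.24 for Ugt2b37 (0.240) and -0.33 for Mgst3 (0.0514), so these 3 no longer passed. Ugt2b35 was higher by 0.16 ± 0.03, in 21 of 24 hours, and by 0.14 without those hours (adjusted p = 0.0128). The separate probe set of Gsto1 had a difference of -0.11 (adjusted p = 0.131), so the higher level of Gsto1 was seen on 1 of its 2 probe sets. The separate set of Ugt3a1 had 0.38 (adjusted p = 0.000278) and was called with a 24 h period by both tests, at CT20.1, while that of Mgst3 is dim.

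Whether the rhythm itself changed between cycles was tested as an interaction of cycle and the 24 h component. It passed the threshold for 4 of 46 genes, against 6.04% of all genes. For Gstm1 the fitted amplitude was 0.37 in the second cycle and 0.01 in the first cycle (adjusted p = 0.00221). For Sult1d1 it was 0.61 and 0.25 (0.0310), for Gstm3 0.64 and 0.08 (0.0341) and for Ugt2b1 0.14 and 0.05 (0.0443), in the second and first cycle in turn. Without CT60 to CT65 none of the 4 passed, with adjusted p between 0.802 and 0.994, and over all 18194 genes 2 passed. Ugt2b1 lay between 271993 and 328047 in CT60 to CT65, against 196585 to 272915 in the other 42 pools. In those 6 hours of the second cycle Gstm1 differed by -0.71 and Gstm3 by -0.96 from the pools 24 h earlier, Sult1d1 by 0.73, Sult1b1 by 0.75, Sult2a8 by 0.42 and Ugt2b1 by 0.35 on the log2 scale. Sult2a8 is a liver enzyme of mice that sulfates bile acids.

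On chromosome 5 the Ugt2 genes lie in the order Ugt2b34, Ugt2b1, Ugt2b35, Ugt2b36, Ugt2b5, Ugt2b37, Ugt2a3 and Ugt2b38, followed after 2 other coding genes by Sult1b1, Sult1d1 and Sult1e1. Fitted peaks of neighbours there lay hours apart. Ugt2b35 at CT6.0 ± 0.45 h lies between Ugt2b1 at CT19.3 ± 0.98 h and Ugt2b36 at CT11.8 ± 0.92 h. Ugt2b1 passed in limma alone, with a fitted peak at CT16.0 in the second cycle and CT21.5 in the first cycle. In the theta cluster on chromosome 10, Gstt2 peaked at CT12.9 ± 0.30 h, while no 24 h component passed the threshold with all pools in Gstt3, Gstt1 or the dim Gstt4 (adjusted p = 0.272, 0.103 and 0.462). Without CT60 to CT65 Gstt3 passed, with an amplitude of 0.24 ± 0.07 at CT16.2 ± 1.03 h (adjusted p = 0.0238), against 0.12 ± 0.07 with all pools.

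Promoter sequences were read from RefSeq (GRCm38.p6), 300 bases around the start and mostly before it, for 41 of the 46 genes. The letters of 3 motifs were searched on both strands. The E-box bound by CLOCK and BMAL1 (CACGTG) was in 0 of 41 windows, beside 7.15% of all 32851 promoters. The D-box bound by DBP, TEF and HLF (TTATGTAA or TTACGTAA) was in 1 of 41, Ugt2b1, beside 1.06%. The antioxidant response element bound by NRF2 (TGACNNNGC) was in 4 of 41, Gsta3, Gstm5, Gstm7 and Mgst1, beside 12.4%. No promoter of these genes held more than 1 of the 3 motifs. The stretch around the match is shown for 2 neighbours of the Gstm row with different peak times, for Gsta3, and for the single D-box, with the matched letters in capitals, read 5′ to 3′ on the strand of the gene.
Gstm7, peak CT1.3, chr3:107931709-107931769, minus strand: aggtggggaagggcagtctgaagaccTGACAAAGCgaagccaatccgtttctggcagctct
Gstm5, peak CT18.4, chr3:107895786-107895846, plus strand: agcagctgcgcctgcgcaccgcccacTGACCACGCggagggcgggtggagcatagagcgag
Gsta3, peak CT18.9, chr1:21240438-21240498, plus strand: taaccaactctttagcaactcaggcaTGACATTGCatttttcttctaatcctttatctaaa
Ugt2b1, peak CT19.3, chr5:86926529-86926588, minus strand: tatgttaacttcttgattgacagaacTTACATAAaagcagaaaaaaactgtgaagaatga
The match lies 129 to 121 bases before the start in Gstm7, 42 to 34 in Gstm5, 121 to 113 in Gsta3 and 59 to 52 in Ugt2b1. A match of letters is a description and not a measured binding site.

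Genes around the supply and turnover of the donor molecules were counted by the same rule, beside 22.3% of all genes with a mean of at least 100. For UDP-glucuronic acid 3 of 5 listed genes were called with a 24 h period by both tests: Ugp2, which makes UDP-glucose (amplitude 0.30, peak CT12.0), Ugdh, which oxidises it (0.18, CT7.8), and the nucleotide sugar transporter gene Slc35b1 (0.28, CT21.2). For PAPS and sulfation 4 of 8 measured genes were called, among them Arsa, a lysosomal sulfatase (0.78, CT7.0), and Slc35b2 (0.31, CT8.0) and Slc35b3 (0.21, CT4.6), which carry PAPS into the Golgi. The PAPS synthase genes were not in the 24 h class. Papss1 passed both tests with a cosine period of 30.0 h, and Papss2 did not pass both. For glutathione 4 of 10 were called. Gclc, the catalytic subunit of the rate-limiting enzyme of glutathione synthesis, had an amplitude of 0.50 ± 0.04 and a peak at CT2.8 ± 0.32 h, within the range of the 6 morning Gstm genes. Gss, which completes glutathione, peaked at CT10.8 (0.38) and Ggct, which degrades its gamma-glutamyl products, at CT23.7 (0.37). A further list held 13 measured genes, of other conjugation reactions and of related enzymes that do not conjugate (Nqo1, Ephx1 and Ephx2). Of these 13 genes 6 were called, and all 6 peaked between CT12 and CT24, beside 36.0% of all called genes at that level. Among the 6 were the methyltransferase genes Nnmt (0.47, CT15.6) and Hnmt (0.29, CT15.3) and the quinone reductase gene Nqo1 (0.26, CT13.5). The median amplitude was 0.28 for the 5 UDP-glucuronic acid genes, 0.23 for sulfation and 0.17 for glutathione. It was 0.15 for other conjugation and related enzymes, beside 0.13 over all genes with a mean of at least 100. These counts, peaks and amplitudes used all pools, and calls without CT60 to CT65 were not tested. The mean log2 level in CT60 to CT65 against CT36 to CT41 differed by -0.42 for UDP-glucuronic acid and -0.56 for sulfation. It differed by -0.16 for glutathione and 0.03 for the further list.

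Of 11 measured regulators and partners of xenobiotic metabolism 5 were called, beside the same 22.3%, those of largest amplitude being Alas1 (1.21, CT12.5), Cebpb (0.60, CT11.5) and Ppara (0.51, CT9.3). Alas1 makes the heme precursor for cytochromes P450, and Ppara encodes a nuclear receptor for fatty acids. The PAR bZIP factors Dbp (3.85, CT10.2) and Tef (CT11.6) and the clock genes Arntl (2.62, CT22.3), Nr1d1 (2.09, CT6.6) and Per2 (1.70, CT13.9) had amplitudes larger than any phase II gene, of which Sult1c2 reached 0.64. These values used all pools. The mean log2 level in CT60 to CT65 against CT36 to CT41 differed by -0.49 for the regulators, -0.77 for the PAR bZIP list and -0.28 for the clock list. In limma 7 of the 11 regulators were lower in the second cycle and 0 higher, against 26.1% and 17.7% of all genes with a mean of at least 100.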

How the data were processed

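The authors pooled liver RNA from 3 to 5 mice per hour and, by their methods, extracted intensities with GCRMA, which corrects background and normalizes arrays to each other. The submitters' notes name MAS5, without a version. The deposited values are linear intensities, from 20.6 to 1.21838e+06, for 45101 probe sets on 48 arrays. Precision is bounded by their number. In the platform annotation 34958 probe sets carry 1 gene symbol, 932 carry several and 9211 carry none. Of the 46 members 11 had more than 1 probe set, and the brightest was used. Suffixes _s_at and _x_at mark probe sets matching several transcripts, and 3 members each were read by such sets.

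All tests ran on log2 values. The G-test covered 23 Fourier frequencies. Before the cosine fit each course was detrended, then periods of 4 to 30 h were searched in steps of 0.1 h, with p from 1000 scramblings. Both were converted to Storey q-values over all probe sets, with classes of 20 to 30, 10 to 14 and 7 to 9 h at q under 0.05. Amplitudes, peak times and standard errors came from limma 3.58.1 (R 4.3.3) from a model of a straight trend plus cosine and sine terms of 24, 12 and 8 h, Benjamini-Hochberg adjusted over all probe sets. The interaction of cycle and 24 h pair and the difference between cycles, with hour as a block, were fitted in limma. All adjusted p-values in the text are from these fits unless a permutation is named. Residual correlations used 100000 permutations. Python 3.11.15, numpy 2.4.6, pandas 2.3.3, scipy 1.17.1 and matplotlib 3.10.9 were used.

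The steps were tested on simulated data of 1000 genes with the spread of real ones. Both tests together recovered 72.0% of 24 h rhythms of amplitude 0.2 and 22.0% of amplitude 0.1, and limma 82.0% and 48.0%. The interaction recovered 68.0% of rhythms of 0.3 placed in the second cycle alone. Noise was drawn independently for each pool and gene, without the shift of CT60 to CT65, so recovery in the real pools was not tested. Calls among unchanged genes were 0 by both tests, 3 in limma, 12 for the difference between cycles and 4 for the interaction.

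Named genes were, per class, the called members of largest amplitude and the bright members of smallest amplitude among those not called by both tests. Members with the smallest p or largest difference between cycles were also named. Other genes were named after their values were seen, as neighbours or pairs. The members and lists were chosen with earlier results of these data known. Alternatives were linear values, quantile normalization, other trends, thresholds and probe sets, each cycle alone, each pool left out and CT60 to CT65 left out.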

Additional observations from a re-analysis of the deposited data

Results flagged for a closer look

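The interaction of cycle and 24 h component passed the threshold for 4 genes, with adjusted p of 0.00221 for Gstm1, 0.0310 for Sult1d1, 0.0341 for Gstm3 and 0.0443 for Ugt2b1 in limma. Each is listed because its rhythm differed between the second and the first cycle. All 4 were larger in the second cycle, and none passed without CT60 to CT65, when 2 of 18194 genes did. The second cycle holds the 6 pools that stood apart, and what set those pools apart was not tested.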

How the results depend on the processing

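The count of 14 genes with a 24 h period by both tests was 10 without CT60 to CT65, 11 with Benjamini-Hochberg adjustment or with a trend removed before the G-test, 12 with linear values or quantile normalization and 25 with the cosine fit alone. The share of all genes was 14.2% in the main setting, 13.3% without CT60 to CT65 and 19.0% with a trend removed. It was 13.4% with linear values and 13.2% with quantile normalization. The count of 1 gene with a 12 h or 8 h period was 0 with a trend removed before the G-test or with Benjamini-Hochberg adjustment and 3 with bright probe sets alone. In limma the 30 genes with a 24 h component were 20 without CT60 to CT65, 23 with quantile normalization, 21 in the second cycle alone and 8 in the first cycle alone, and 25 to 32 with 1 pool left out. Of all genes, 52.7% had a 24 h component in the main fit, 29.2% without CT60 to CT65 and 31.7% with quantile normalization. This share was 49.1% in the second cycle alone and 11.3% in the first cycle alone. The 0 genes with a 12 h component were 1 without CT60 to CT65 (Ugt3a2) and 0 to 1 with 1 pool left out, and the 0 with an 8 h component were 0 to 1. Of the 4 genes with a change of rhythm between cycles 0 passed without CT60 to CT65. The 23 genes with a change of level were 10 with quantile normalization, 13 with bright probe sets alone and 14 without CT60 to CT65 and CT36 to CT41; the cause was not tested. A dim separate probe set of Gstm7 (mean 57.6) had an amplitude of 0.0196 and a peak on the other side of the day. The call in limma was lost without CT53 or CT54 for Sult6b1, without any of CT20, CT27, CT42, CT53, CT54 or CT64 for Gstm5, and without any of 17 pools for Sult2a8 and 17 for Ugt3a2, while Ugt2b37 passed without any of 16. With 1 array an hour every estimate rests on neighbouring pools, and signal over background limits the dim genes.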

Other observations

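The Ugt1a locus, which encodes the enzymes that conjugate bilirubin and many phenols, was left out by the rule on single symbols, and its 3 shared probe sets gave these values. They had fitted 24 h amplitudes of 0.04 ± 0.02, 0.05 ± 0.02 and 0.04 ± 0.03, and their adjusted p for the 24 h component in limma was between 0.0973 and 0.468. None was called by both tests. All 3 had their lowest value of the 48 pools at CT61, 106106, 162529 and 143101, while their medians were 157087, 222147 and 205319. At the same hour 6 of the 10 UGT2 and UGT3 genes had their highest value, beside 11.3% of all genes with a mean of at least 100. The share of all genes lowest at CT61 was not counted, while 36.5% of genes at that level were lowest within CT60 to CT65. The probe set shared by Gsta1, Gsta2 and a predicted gene had an amplitude of 0.18 ± 0.06 and a peak at CT15.5 ± 1.37 h (adjusted p = 0.0462), and was highest at CT61.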
